A study of Mus musculus with 79 samples.

Results

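Strains of the BXD mouse family were divided here by the level of 1 probeset of Acp1, a gene of chromosome 12, and the quadriceps transcripts of the resulting groups were compared. The groups were selected on this level: a strain with arrays from both diets belonged to the high group when the mean of its chow diet (CD) and high fat diet (HFD) values of this probeset was above a threshold, and to the low group when it was below. The threshold lay in a gap between strain means of 8.10 and 8.65. Of 42 strains in the series, 37 had both diets; 27 of these formed the high group and 10 the low group, on 54 and 20 of the 79 arrays. The split serves as a stand-in for the allele of each strain at this place on chromosome 12, since the genotypes themselves were not used here.

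Each BXD strain is inbred and carries a fixed mosaic of 2 parental genomes, with B6 alleles from C57BL/6J and D2 alleles from DBA/2J. The high group held 26 BXD strains and C57BL/6J, and the low group held 9 BXD strains and DBA/2J. All mice were males killed at 29 weeks of age after an overnight fast, fed CD throughout or HFD from 8 weeks of age. Each strain gave 1 array per diet, made from the pooled quadriceps RNA of about 5 mice, so the error terms below describe the spread between strain pools and hold no estimate of the spread between mice.

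Values are the deposited scores, which the authors scaled to a mean of 8.0 and an SD of 2.0 on every array. They behave as a log-type measure whose base is not stated, so differences are given in score units and not as folds. RNA was extracted and hybridised in 2 batches, which were spread alike over the groups, with 10 and 17 arrays of the high group and 5 and 5 of the low group in batches 1 and 2 for CD (two-sided Fisher's exact test, p = 0.708) and 12 and 15 against 5 and 5 for HFD (p = 1.0). In strain BXD63, a member of the high group, the profile of HFD minus CD ran against that of the other strains: its correlation across genes with the mean profile of the rest was -0.32, where the other 36 strains gave 0.21 to 0.63. Leaving this strain out kept the numbers of called genes given below at 2 in CD, 1 in HFD and 2 for strain means.

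Acp1 encodes the low molecular weight protein tyrosine phosphatase, a small cytosolic enzyme that removes phosphate from tyrosines of signalling proteins, among them the insulin receptor and receptors of growth factors. In an inbred mosaic family, genes that lie near each other are mostly inherited together from one parent, and recombination separates them with distance. A strain split at 1 place therefore also splits its neighbourhood, and local sequence differences between the parents can change transcript levels or the binding of array probes.

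Acp1 lies head to head with Sh3yl1, which encodes an adaptor with a lipid-binding and an SH3 domain. The windows around their starts are shown because they overlap while only 1 of the pair is the gene of the split. Each runs 5′ to 3′ from 250 bases before to 50 bases after the RefSeq start in GRCm38, and the 156 bases that both windows hold, on opposite strands, are in capitals. The Acp1 window is chr12:30911563-30911862 on the minus strand and the Sh3yl1 window is chr12:30911419-30911718 on the plus strand.
Acp1: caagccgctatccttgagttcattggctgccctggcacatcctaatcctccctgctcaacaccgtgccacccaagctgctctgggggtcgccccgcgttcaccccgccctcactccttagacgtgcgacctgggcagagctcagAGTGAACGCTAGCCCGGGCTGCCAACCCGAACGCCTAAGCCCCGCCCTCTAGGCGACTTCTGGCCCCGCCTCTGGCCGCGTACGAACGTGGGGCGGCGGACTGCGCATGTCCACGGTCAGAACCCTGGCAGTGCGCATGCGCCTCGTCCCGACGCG
Sh3yl1: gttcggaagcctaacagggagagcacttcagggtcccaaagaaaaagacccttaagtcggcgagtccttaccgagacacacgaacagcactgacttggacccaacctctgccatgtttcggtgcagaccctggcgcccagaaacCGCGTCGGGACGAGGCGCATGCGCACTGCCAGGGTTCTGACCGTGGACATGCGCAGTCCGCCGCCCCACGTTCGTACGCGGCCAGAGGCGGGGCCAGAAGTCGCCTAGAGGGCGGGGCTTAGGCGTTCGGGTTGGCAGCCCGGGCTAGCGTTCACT

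The 27 strains of the high group read 8.55 (BXD66) to 9.14 (BXD56) on the splitting probeset in CD, with a median of 8.92. The 10 strains of the low group read 7.43 (BXD45) to 8.34 (BXD69) in CD, with a median of 8.08. In HFD the high group read 8.47 (BXD73) to 9.18 (BXD71), with a median of 8.90, and the low group 7.39 (BXD81) to 8.19 (BXD99), with a median of 7.77. The groups did not overlap in either diet, and either diet alone put every strain in the same group. C57BL/6J read 8.96 in CD and 8.55 in HFD, against 8.13 and 7.76 in DBA/2J. The strain means nearest to the threshold were 8.10 for BXD99 of the low group and 8.65 for BXD103 of the high group, so no strain mean lay between these values. Since this probeset chose the groups, its levels are a description and carry no test. From CD to HFD it changed by -0.03 ± 0.25 (SD, n = 27) in the high group and -0.17 ± 0.51 (SD, n = 10) in the low group, and the values of single low strains moved by -0.94 to 0.73.

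**Figure D1:**
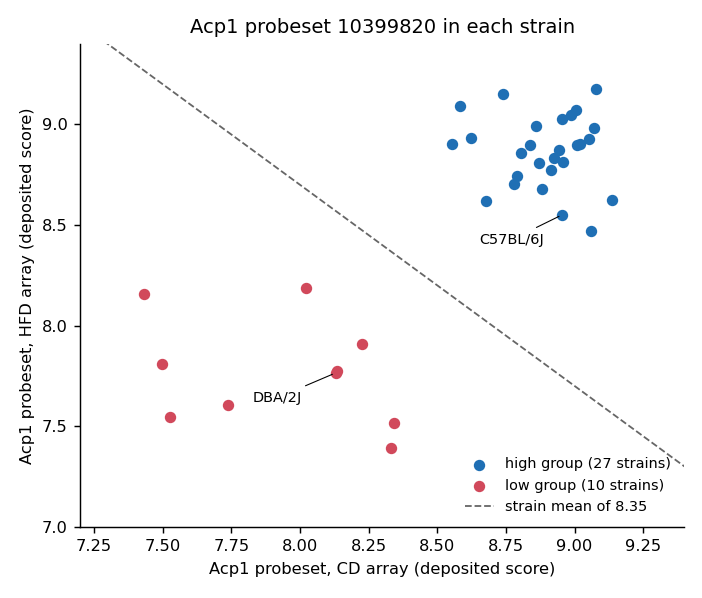
The Acp1 probeset that split the strains, in each of the 37 strains, with the CD array on the horizontal axis and the HFD array on the vertical axis, both as deposited scores; blue points are the 27 strains of the high group, red points the 10 strains of the low group, and the dashed line marks a strain mean at the threshold. The low strains spread over 7.43 to 8.34 in CD and 7.39 to 8.19 in HFD, and no strain lies near the line.

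The array carries 5 probesets under the name Acp1, and the other 4 ran the opposite way. Probesets of this array are numbered along the genome, and all 10 numbered neighbours of the splitting probeset with a matched gene lie on chromosome 12, the chromosome of Acp1. The neighbours of 10355401, 10491883 and 10557199 lie, 10 of 10 in each case, on chromosomes 1, 3 and 7, and those of 10606532 lie on chromosome X for 9 of 10. On 10355401 the high group read 9.65 to 10.18 in CD with a median of 9.94, and the low group 10.32 to 10.58 with a median of 10.52. The low group was thus the higher one there, without overlap. High minus low differences on the 4 probesets were -0.45 to -0.58 in CD and -0.49 to -0.68 in HFD, against 0.97 and 1.10 on the splitting probeset. The groups did not overlap on any of the 4 in CD, and in HFD 1 high strain read above the lowest low strain on 10491883. Across the 37 strain means, the r of the 4 with it was -0.873 to -0.893, a description of points that already fall into separate groups. Which transcripts each probeset binds was not tested, so the direction of Acp1 transcript between the groups cannot be told from these probesets.

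**Figure D2:**
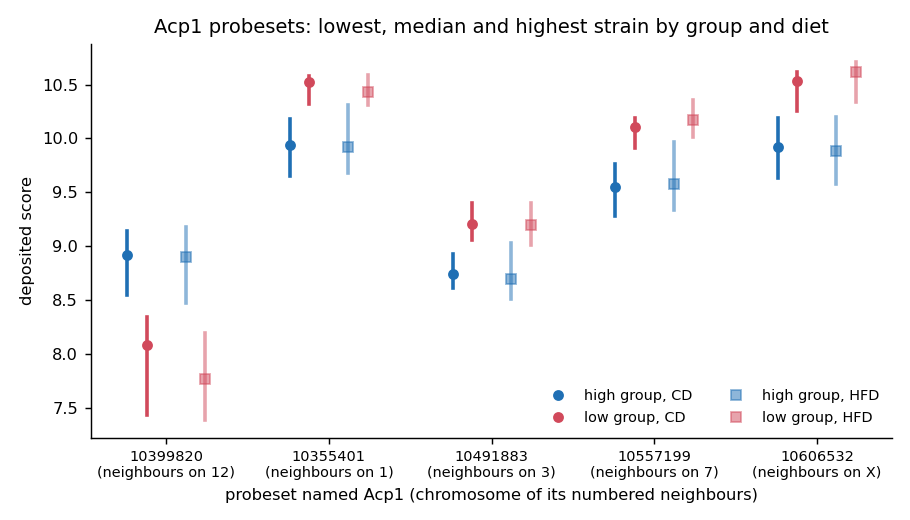
The 5 probesets named Acp1, with the chromosome of most of their numbered neighbours, on the horizontal axis and the deposited score on the vertical axis; symbols are medians and lines run from the lowest to the highest strain, blue for the high group (27 strains), red for the low group (10 strains), circles for CD and squares for HFD. The probeset placed on chromosome 12 is higher in the high group, and the other 4 are lower in it.

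Outside Acp1, few genes differed between the groups, and the genes that passed the test, each on the probeset that stands for it, all lie on chromosome 12 under the test as described here. The test was limma with batch as a covariate and Benjamini-Hochberg adjustment over all 35556 probesets, and a gene was called at an adjusted p below 0.05. Of 22334 genes other than Acp1, each read from 1 probeset, 2 were called in CD (0.00895%), namely Ttc15, lower in the high group, and Scin, higher in it. In HFD 1 was called (0.00448%), again Ttc15. On strain means over both diets 2 were called (0.00895%), Ttc15 and Adi1, both lower in the high group. Without adjustment, a p below 0.05 was reached by 1395 genes in CD (6.25%), 863 in HFD (3.86%) and 1273 on strain means (5.7%), of which 999, 562 and 886 were lower in the high group. The median standard error of a gene's difference was 0.0549 in CD and 0.0597 in HFD, and the median absolute difference was 0.0422 and 0.0386. In limma's test with strain as a replicate block on all 74 arrays, which takes the pairing of arrays from the strain names in the labels, 17 genes were called (0.0761%) in place of the 2 on strain means.

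Ttc15, now named Trappc12, encodes a subunit of a TRAPP complex that tethers vesicles on their way through the secretory and autophagy pathways. It is the eighth array gene from Acp1, on the side of the lower coordinates. In CD it read 9.43 to 10.10 in the high group, with a median of 9.58, and 9.85 to 10.15 in the low group, with a median of 9.94. In HFD it read 9.34 to 10.11 with a median of 9.59, against 9.81 to 10.12 with a median of 9.96. In CD 1 high strain read above the lowest low strain, and in HFD 3 did. The high group was lower by -0.35 (SE 0.0478, limma adjusted p = 7.03e-05) in CD and by -0.38 (SE 0.0636, limma adjusted p = 0.00457) in HFD. Within batch 1 the difference was -0.43 in CD and -0.51 in HFD, and within batch 2 -0.28 and -0.25, and none of these passed the test on its own, with limma adjusted p of 0.067, 0.0521, 0.754 and 1.0. C57BL/6J read 9.43 and 9.70, and DBA/2J 10.15 and 10.12, in CD and HFD.

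By their strain means, 3 high strains stood apart from the rest of their group. BXD85 read 10.10 in CD and 10.11 in HFD, within the range of the low group both times. BXD87 read 9.84 and 9.96, and BXD66 9.79 and 9.93, within that range in HFD and just below it in CD, where the other 24 high strains read 9.43 to 9.75 and 9.34 to 9.70. In all 3 strains the splitting probeset of Acp1 was at the level of the high group on both arrays, 8.55 to 9.15. These strains were chosen after their values were seen, as the strains above the widest gap in the strain means.

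Adi1 lies next to Ttc15, 1 gene farther from Acp1, and encodes acireductone dioxygenase, an enzyme of the methionine salvage pathway. In CD it read 11.40 to 12.29 in the high group, with a median of 11.62, and 11.64 to 12.43 in the low group, with a median of 12.15. In HFD the medians were 11.65 and 12.14, with ranges of 11.25 to 12.28 and 11.10 to 12.46. Medians were apart, but the ranges overlapped widely. The differences were -0.42 (SE 0.0847, limma adjusted p = 0.055) in CD, -0.37 (SE 0.102, limma adjusted p = 0.678) in HFD and -0.41 (SE 0.0801, limma adjusted p = 0.0407) on strain means, so of these 3 only the one on strain means passed. In CD it was -0.20 within batch 1 and -0.62 within batch 2 (limma adjusted p 0.628 and 0.0267). Leaving out BXD84, which read 11.10 in HFD and 12.32 in CD, turned the HFD difference into -0.48 with a limma adjusted p of 0.0121. On strain means the call was lost when any 1 of 8 of the 10 low strains was left out. Of the 3 high strains that stood apart for Ttc15, BXD85 was also the highest high strain for Adi1, at 12.29 and 12.28. BXD66 at 12.09 and 12.02 and BXD87 at 11.97 and 11.86 read above the high median and within the range of the low group, as did other high strains such as BXD90 at 12.09 and 11.94.

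Scin encodes scinderin, a calcium-dependent protein of the gelsolin family that severs actin filaments. It lies on the other side of Acp1, 47 array genes away. In CD it read 7.24 to 8.01 in the high group, with a median of 7.71, and 6.80 to 7.87 in the low group, with a median of 7.12. In HFD it read 6.93 to 7.96 with a median of 7.68, against 7.04 to 7.58 with a median of 7.30. The difference was 0.48 (SE 0.0871, limma adjusted p = 0.0139) in CD and 0.32 (SE 0.0887, limma adjusted p = 0.687) in HFD, and the diet by group term was -0.16 (95% interval -0.40 to 0.09, limma adjusted p = 1.0), so a difference between diets was not shown. The CD call was lost when any 1 of BXD43, BXD69, BXD81 or BXD99 was left out (limma adjusted p 0.0531 to 0.103) and within either batch, where the differences were 0.53 and 0.44.

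For Scin 6 strains lay on the side of the other group by the widest gap in the strain means, again chosen after their values were seen. Low strains BXD44 and BXD45 read 7.48 to 7.87 in CD and 7.57 to 7.58 in HFD. The ranges overlapped beyond these strains, with 4 low strains above the lowest high strain in CD and all 10 in HFD. DBA/2J read above BXD44 in CD but was the lowest low strain in HFD, at 7.04, so single diets did not set the same low strains apart. High strains BXD56, BXD79, BXD90 and BXD100 read at most 7.4 in CD and 7.35 in HFD, in the lower part of the range of their group. Zfp277, a zinc finger protein gene 3 genes beyond Scin and chosen here after its values were seen, divided the strains in the same way and with a wider gap. BXD56, BXD79, BXD90 and BXD100 read 8.42 to 8.54 in CD and 8.32 to 8.63 in HFD, and the 8 low strains other than BXD44 and BXD45 read 8.31 to 8.56 and 8.15 to 8.56. BXD44 and BXD45 read 9.08 to 9.14, within the 8.76 to 9.19 of the other 23 high strains. Gm889 (now Lsmem1), between Scin and Zfp277 and also chosen after its values were seen, split the strains likewise in the opposite direction, with 10.07 to 11.16 in the 23 high strains and 11.37 to 12.16 in the 8 low strains other than BXD44 and BXD45 in HFD. None of the 6 departing strains for these genes was among the 3 for Ttc15. Zfp277 and Gm889 differed between the Acp1 groups by 0.36 and -0.57 in CD and by 0.34 and -0.66 in HFD, and neither was called (limma adjusted p 0.337 to 0.623). Without BXD44, Gm889 was called in HFD at -0.79 (limma adjusted p = 0.047).

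**Figure D3:**
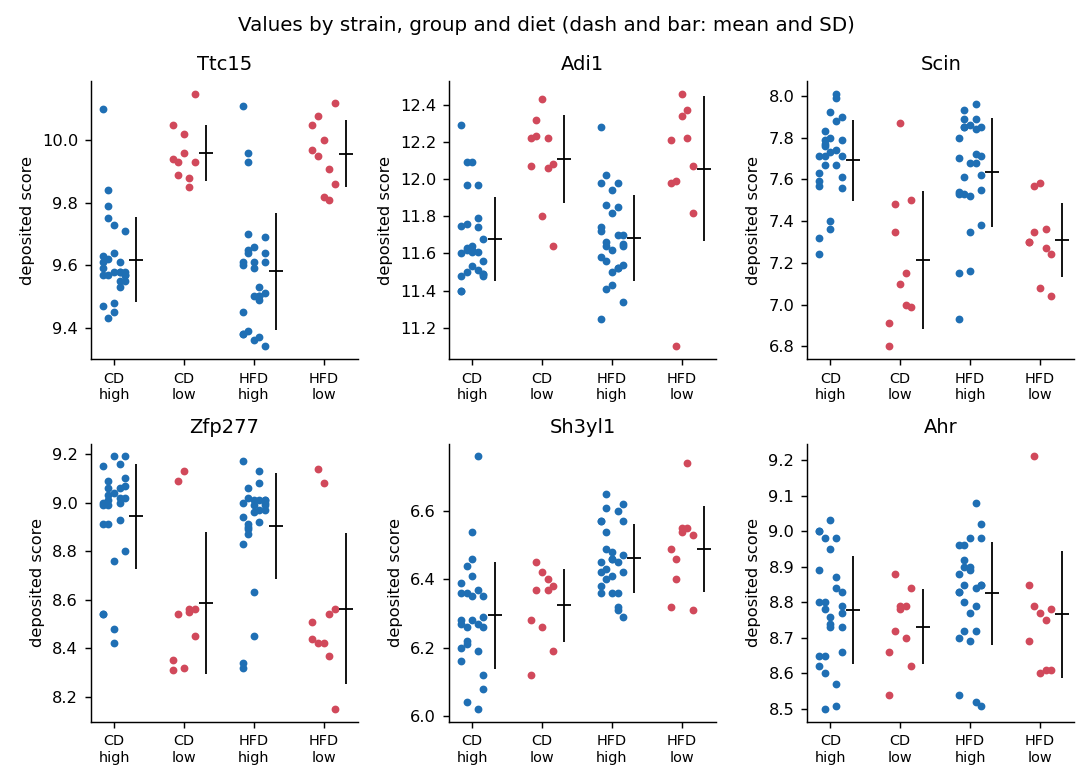
Deposited score (vertical axis) of 6 genes in every strain, by group and diet on the horizontal axis; each point is 1 strain, blue for the high group and red for the low group, and the dash and bar beside the points give mean and SD. For Ttc15 BXD85 lies among the low group in both diets, for Zfp277 4 high and 2 low strains sit with the opposite group in both diets, and for Sh3yl1 and Ahr the groups lie over each other.

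Of the 20 genes made up of the 10 on each side of Acp1, 3 reached an unadjusted p below 0.05 in CD and 3 in HFD, where 6.25% and 3.86% of all genes did, and 1 was called in each diet, Ttc15. Both genes with such a p in both diets, Adi1 and Ttc15, lie 9 and 8 genes from Acp1 on the side of the lower coordinates. Tssc1 (now Eipr1, a partner of vesicle-tethering complexes), the next gene towards Acp1, differed by 0.08 in CD and 0.14 in HFD. Its direction was opposite to that of Ttc15, with limma adjusted p of 0.793 and 0.866 and unadjusted p of 0.0663 and 0.00156. Between it and Acp1, Myt1l, a neural transcription factor gene, gave -0.06 and 0.07, Pxdn, which encodes the basement membrane enzyme peroxidasin, -0.05 and 0.06, and Fam150b (now Alkal2, a ligand of receptor tyrosine kinases) -0.09 and -0.04.

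Sh3yl1, which shares the start region printed above with Acp1, had a difference near 0 in both diets, on a probeset whose level was below the median of all probesets, so that a difference in the transcript may not be visible on it. It read 6.02 to 6.76 in the high group and 6.12 to 6.45 in the low group in CD, and 6.29 to 6.65 and 6.31 to 6.74 in HFD. The groups lay over each other, and the difference was -0.03 in each diet, with 95% intervals of -0.14 to 0.08 in CD and -0.12 to 0.06 in HFD. On its far side, Lamb1 (a laminin chain) gave 0.05 and 0.03, Dld (dihydrolipoamide dehydrogenase, shared by the pyruvate dehydrogenase and related complexes) -0.03 and -0.06, Cbll1 (a ubiquitin ligase) 0.05 and -0.03, Slc26a4 (an anion exchanger) -0.01 and 0.07, and Bcap29 (a membrane protein of the endoplasmic reticulum) 0.06 and -0.07. In the 10 genes on this side, 1 had an unadjusted p below 0.05 in CD, 6030469F06Rik at -0.13, and none in HFD, where its difference was 0.01.

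Farther out, Scin in CD was the only gene called on chromosome 12, and other genes had at most an unadjusted p below 0.05. On the side of the lower coordinates, 26.7% of 15 genes at places 11 to 25 reached an unadjusted p below 0.05 in CD and 13.3% in HFD, and 6 of 25 genes at places 26 to 50 did so in each diet. On the other side the shares were 6.67% of 15 genes in both diets at places 11 to 25, and 6 of 25 genes in CD and 4 in HFD at places 26 to 50. At places 51 to 100 it was 6 of 50 genes in CD and 1 in HFD, and beyond place 50 on the side of the lower coordinates 9.38% and 6.25% of 64. Beyond place 100 on the side of the higher coordinates, 6.36% of 472 genes did so in CD and 4.45% in HFD, near the 6.25% and 3.86% of all genes. Genes with an unadjusted p below 0.05 and the same direction in both diets numbered 102 of all 22334 and 15 of the 687 on chromosome 12. The 2 diets share strains but no animals or arrays.

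**Figure D4:**
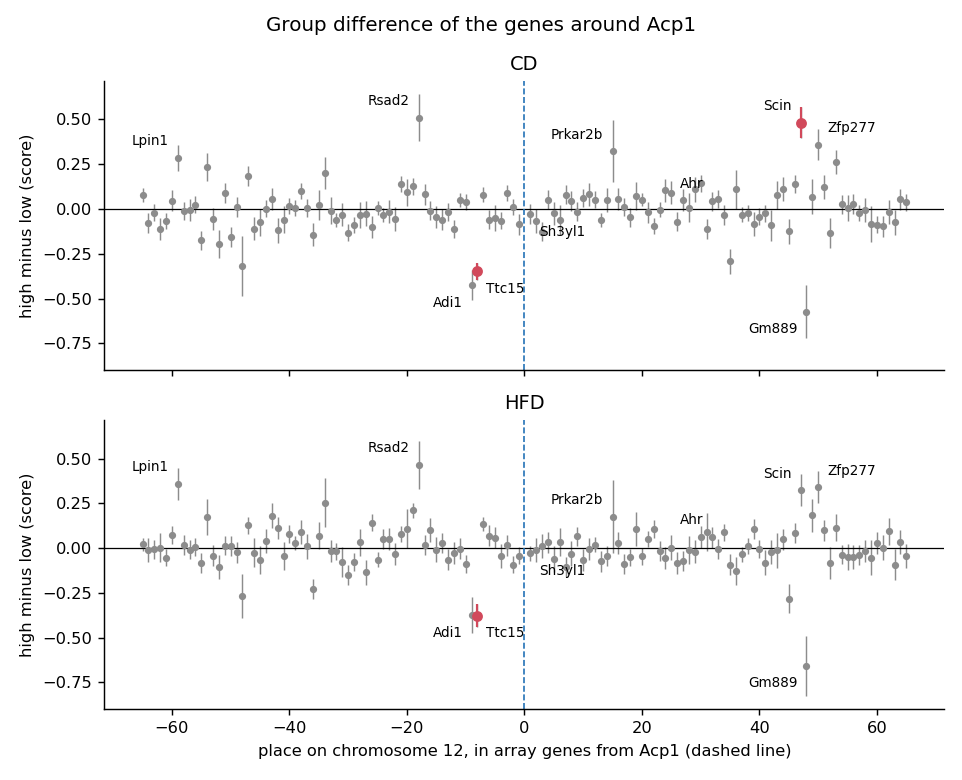
High minus low difference in score units (vertical axis) of genes within 65 places of Acp1, in the order of genes along chromosome 12 (horizontal axis, Acp1 at the dashed line), for CD and HFD; points are estimates, bars are 1 SE, and red marks genes called at an adjusted p below 0.05. Ttc15 and Adi1 lie side by side below 0 in both diets, and the genes next to Acp1, Sh3yl1 among them, lie close to 0.

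A pair of neighbouring genes was singled out after their values were seen. Rsad2, an interferon-induced antiviral gene 18 places from Acp1, read 7.21 to 8.72 in the high group and 7.19 to 7.74 in the low group in CD, and 7.48 to 9.04 and 7.53 to 8.34 in HFD. The ranges overlapped, with 7 of 27 high strains below the highest low strain in CD and 12 in HFD. Its differences were 0.51 and 0.46 (limma adjusted p 0.42 and 0.853). Rnf144a, a ubiquitin ligase gene beside it, differed by 0.13 in CD and 0.21 in HFD (limma adjusted p 0.74 and 0.0581), and in HFD 5 of 27 high strains read below the highest low strain. In HFD it was called with dim probesets removed, limma-trend, the methods' t-test, no batch term, quantile normalization, and without BXD43 or BXD81 (limma adjusted p 0.0147 to 0.0499). With strain as a replicate block, both were among the 17 called genes, with differences of 0.49 and 0.17, and on strain means neither was (limma adjusted p 0.212 and 0.118).

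Of the 17 genes called with the block, 12 were higher in the high group, and 8 lie on chromosome 12: Ttc15, Scin, Adi1, Zfp277, Gm889, Lpin1, Rnf144a and Rsad2. On strain means 2 of the 17, Ttc15 and Adi1, were called, and the other 15 were not, with limma adjusted p of 0.0684 to 0.765. The block assumes 1 correlation of 0.15 between the arrays of a strain for all genes.

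Genes whose strain means followed the splitting probeset most closely were, by rule, the 5 with the largest absolute Pearson r over the 37 strains, and all of these r also reflect the gap between the groups. They were Ttc15 (r -0.722), Adi1 (-0.642), Lpin1 (0.633), Scin (0.631) and a probeset named as a long terminal repeat (0.626), which carries no gene name and whose numbered neighbours lie on chromosome 12 for 8 of 10. Within the 27 high strains alone, their r with the probeset was 0.024 to 0.18 in place of these values. Within the 10 low strains it was 0.357 for Ttc15, opposite in sign to the value over all strains, -0.329 for Adi1, 0.411 for Lpin1, -0.182 for Scin and -0.108 for the repeat. Lpin1 encodes lipin, a phosphatidate phosphatase of triglyceride synthesis that also acts as a coactivator of fat oxidation genes, and lies 59 genes from Acp1 on the side of the lower coordinates. It read 12.10 to 12.85 in the high group and 11.89 to 12.91 in the low group in CD, and 11.93 to 12.98 and 11.91 to 12.42 in HFD. The differences of 0.28 and 0.36 did not pass the test (limma adjusted p 0.452 and 0.509), and BXD43 gave the 12.91, above every high strain in CD. Without BXD43 Lpin1 was called in CD, at 0.35 (limma adjusted p = 0.0225).

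Of the genes of a chromosome 12 locus of movement, the 15 listed here are those that the text of the study names, Acp1 included, and are only part of the genes it examined there. None of the other 14 was called in either diet, with 0 of 14 at an unadjusted p below 0.05, where 6.25% and 3.86% of all genes had one, and a lowest unadjusted limma p of 0.0507 in CD and 0.0571 in HFD. Ahr, which encodes the aryl hydrocarbon receptor, a ligand-activated transcription factor, lies 32 genes from Acp1 on the side of the higher coordinates. It read 8.50 to 9.03 in the high group and 8.54 to 8.88 in the low group in CD, and 8.51 to 9.08 and 8.60 to 9.21 in HFD. The groups lay over each other, and the differences were 0.04 (95% interval -0.06 to 0.15) in CD and 0.06 (95% interval -0.06 to 0.18) in HFD. Ahr lies between Acp1 and Scin, and the allele of each strain at Ahr was not read. These are therefore differences of the Acp1 split and not of the Ahr allele. Without BXD44, which gave the 9.21, the HFD difference was 0.11 (unadjusted limma p = 0.0488, adjusted p = 1.0). Hdac9, a histone deacetylase gene, differed by 0.01 and -0.01, Prps1l1 by 0.11 and -0.02, Tmem195, which encodes a lipid-cleaving oxygenase, by 0.08 and -0.01, and Ispd, an enzyme of dystroglycan glycosylation, by -0.02 and -0.08. The paper detected no transcript of Prps1l1, or of another of the 14, in any of its tissues, so a difference may not be visible on their probesets. Medians over the 14 genes were 0.01 in CD and -0.017 in HFD, beside -0.012 and -0.01 over all genes.

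Prkar2b, which encodes a regulatory subunit of the cAMP-dependent protein kinase, had the largest difference of the 14 in CD, 0.32 (95% interval -0.03 to 0.67, limma adjusted p = 0.795), and in HFD 0.18 (95% interval -0.23 to 0.59). It read higher in HFD than in CD in 21 of 27 high strains, by 0.60 ± 0.59 (SD) over all 27, and in 10 of 10 low strains, by 0.78 ± 0.51 (SD). The diet by group term was -0.18 (95% interval -0.72 to 0.37), so a difference in the diet change between the groups was not shown. That fit took the arrays of a strain as independent, so its interval does not measure the spread of diet changes between strains. Over all genes, 0 were called for the diet by group term (0.0%), also in a fit with a term for each strain. An unadjusted p below 0.05 was reached by 498 genes (2.23%) in limma's test without strain terms and by 737 with them.

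No list of pathway or cell type genes held a called gene. The 13 lists had 164 genes on the array, of which 8 (4.88%) reached an unadjusted p below 0.05 in CD and 2 (1.22%) in HFD, beside the 6.25% and 3.86% of all genes. For Ahr with its partners and target genes, 2 of 14 did so in CD, Nqo1 at 0.24 and Cyp1a2 at -0.16, and 0 of 14 in HFD, where they differed by 0.03 and -0.05. For insulin and growth factor receptor signalling, where substrates of the Acp1 phosphatase lie, 2 of 26 did so in CD and 0 in HFD, and the medians were -0.005 and -0.024. The insulin receptor gene Insr differed by -0.02 in HFD (95% interval -0.15 to 0.10), and the muscle glucose transporter gene Slc2a4 by 0.10 in CD and 0.12 in HFD (limma adjusted p 0.795 and 0.999). For the classical protein tyrosine phosphatases, the family of receptor and cytosolic enzymes to which Acp1 does not belong, 1 of 26 did so in each diet, with medians of 0.013 and 0.002. For fatty acid oxidation it was 0 of 23 in both diets, with medians of 0.034 and -0.074. These list members are named after their values were seen.

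Muscle markers were high on all arrays, with a mean level of 14.48 to 14.78 over the 8 skeletal muscle genes, and their median difference was -0.019 in CD and 0.017 in HFD. The slow fibre list had a median of -0.193 in CD and -0.074 in HFD, the latter equal to that of fatty acid oxidation, and the adipocyte list 0.106 and 0.149. Slow fibre members differed by -0.40 to 0.01 in CD, led by Myh7 at -0.40 (SE 0.322), and 0 of 11 had an unadjusted p below 0.05 in either diet. Of 14 adipocyte markers, 2 had such a p in CD and 1 in HFD, where 6.25% and 3.86% of all genes had one. None was called, and Adipoq, the adiponectin gene, differed by 0.43 in both diets (limma adjusted p 0.754 and 0.999). The mean level of the adipocyte list ranged over 10.18 to 11.36 in high strains and 10.20 to 10.87 in low strains in CD, and over 10.24 to 11.69 and 10.44 to 11.17 in HFD. Their part in the differences of other genes was not tested, and in whole muscle fewer cells of a type and less RNA per cell cannot be told apart.

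**Figure D5:**
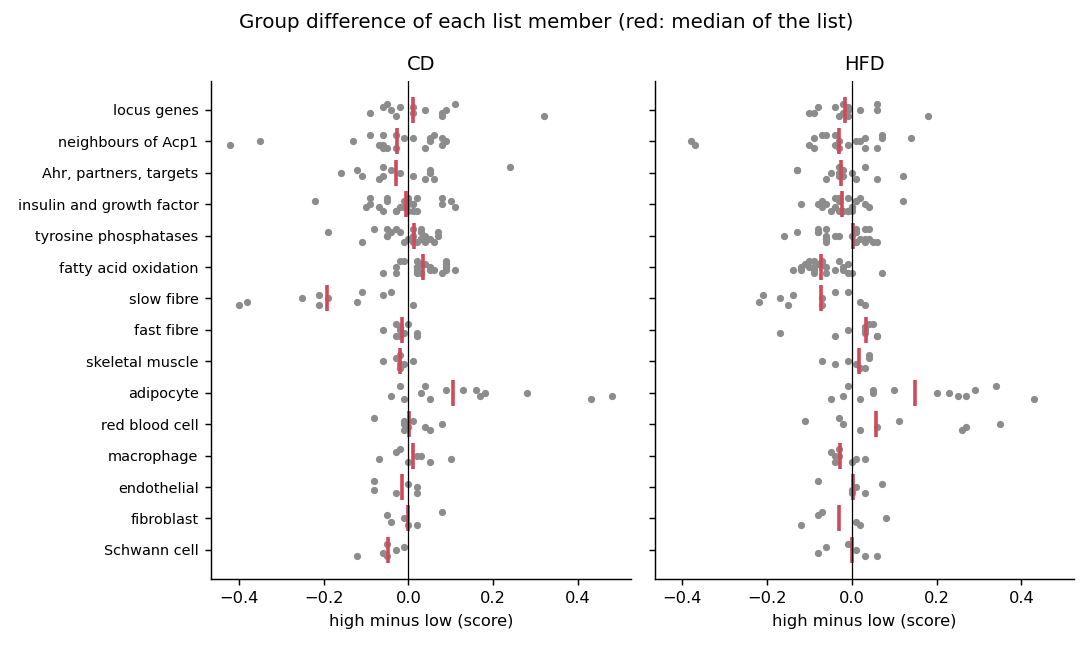
High minus low difference in score units (horizontal axis) of every gene on the array in 15 sets of genes (vertical axis), for CD and HFD; grey points are genes and red marks are medians of the set. Most genes lie within 0.2 of 0, Adi1 and Ttc15 stand out among the neighbours of Acp1, and the slow fibre and adipocyte medians lie farthest from 0 in CD.

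Fggy, a carbohydrate kinase gene of chromosome 4, is named after its values were seen, because 1 of its probesets was called in HFD although the probeset that stood for the gene was not. On 10505982 the high group read 7.17 to 9.04 in HFD, with a median of 8.50, and the low group 7.05 to 7.68, with a median of 7.39. Most high strains lay above the low group, and 7 of 27 read below its highest strain. The difference was 0.91 in HFD (SE 0.163, limma adjusted p = 0.012) and 0.85 in CD (SE 0.182, limma adjusted p = 0.113). Probesets 10505994, 10505996 and 10505998 differed by 0.83 to 0.96 in the 2 diets without passing the test (limma adjusted p 0.0598 to 0.28), while 10505980, the brightest, differed by 0.18 and 0.20. On strain means an unnamed probeset, 10341461, was also called, at 0.65 (limma adjusted p = 0.0264).

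The 5 strains with CD alone were not used by the split and were read beside it. The splitting probeset read 7.43 in BXD60, 7.83 in BXD101, 8.37 in BXD50, 9.04 in BXD95 and 9.11 in BXD92a. BXD50 thus lay just above the threshold, between the groups, and its other 4 Acp1 probesets read 10.43, 9.20, 10.01 and 10.42, within the ranges of the low group. Ttc15 read 10.11, 9.88 and 10.05 in BXD60, BXD101 and BXD50, within the CD range of the low group, and 9.51 and 9.45 in BXD95 and BXD92a, within the range of the high group and below its median. Adi1 also read higher in BXD60, BXD101 and BXD50, at 11.90, 12.16 and 12.16, than in BXD95 and BXD92a, at 11.46 and 11.36. Scin did not, with 7.92, 7.30 and 7.75 against 7.92 and 7.67. With these strains added by the threshold, 5 genes were called in CD (Ttc15, Adi1, Scin, Tspan13 and the long terminal repeat probeset); with BXD50 counted as low, a choice made after the data were seen, 2 were called, Ttc15 at -0.37 and Adi1 at -0.44, and Scin at 0.38 was not (limma adjusted p = 0.129).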

How the data were processed

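Quadriceps RNA was measured on Affymetrix Mouse Gene 1.0 ST arrays, 42 for CD and 37 for HFD. The deposited table holds 1 score per probeset and array, scaled by the authors to a mean of 8.0 and an SD of 2.0, and the submitters' processing notes name Affymetrix Expression Console; summarization, background correction and log base are not given in the sources used here. Arrays give no read depth, and their number limits the precision. Of 22335 symbols, 18776 matched a current RefSeq symbol and 2387 a synonym of 1 gene (assembly GRCm38.p6, used for names, chromosomes and gene order), and 1172 did not match. A symbol was read from its brightest probeset among those with most of their 10 numbered neighbours on the gene's chromosome.

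Groups were compared as high minus low with limma 3.58.1 (R 4.3.3) on the scores: CD and HFD arrays separately with batch as a covariate, strain means over both diets with the batch pattern of the strain, and the diet by group term over all 74 arrays. The diet by group fit had terms for diet and batch and none for strain, so it did not use the pairing of arrays. All p-values are two-sided and adjusted by Benjamini-Hochberg over 35556 probesets. The fit was tested on simulated data. Genes are named by rule: Acp1, the locus genes (6 of them only as part of counts and ranges), 10 genes on each side of Acp1, called genes, and the 5 with the largest absolute r. The members, lists and tests were chosen with earlier results of these data known.

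The pairing of a strain's arrays comes from the labels. Deviations from group means correlated within a strain at a median of 0.273, above 0.1 in 33 of 37 strains, over different animals. Other settings tried were no batch term, single batches, other sets of strains, the split by the other diet's value, the methods' t-test, limma-trend, quantile normalization, median centring, dim probesets, the choice of probeset and strain as a block. For the diet by group term, strain entered as a term for each strain and not as a block. Leaving out single low strains on strain means, and BXD50 in the low group, were added after seeing the data.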

Additional observations from a re-analysis of the deposited data

Results flagged for a closer look

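Low group values were examined for 1 strain standing apart from the other 9, in 60 sets of 10 values, and 8 sets held one (chance gives about 1 in 20). For Adi1 in HFD, BXD84 read 11.1, below the other low strains. For Ahr in HFD, BXD44 read 9.21, above the other low strains, and for Tmem195 in HFD BXD69 read 9.24. For Rnaseh1 in CD, BXD69 read 8.347, and for Dld in HFD the same strain read 12.19. For 6030469F06Rik in CD, DBA/2J read 7.58. For Gm9359 in HFD, BXD44 read 7.8, below the rest. For Lpin1 in CD, BXD43 read 12.91.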

How the results depend on the processing

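The number of called genes in CD, 2, became 0 within batch 1 and 1 within batch 2 (Adi1), 4 without the batch term and 5 with the CD-only strains. In HFD the 1 called gene became 0 within either batch, 4 with dim probesets removed, 2 with limma-trend, with the methods' t-test and without the batch term, and 3 after quantile normalization. On strain means the 2 became 4 with dim probesets removed, 5 without the batch term, 1 without the parental strains and 17 with strain as a replicate block. Leaving out 1 low strain at a time gave 1 to 3 in CD, 1 to 2 in HFD and 1 to 2 on strain means. The causes were not tested, but each batch alone holds fewer samples. The methods' t-test called 3 genes in CD and 2 in HFD after Benjamini-Hochberg, and gave 1425 and 939 genes at an unadjusted p below 0.05. Counts under the other settings stayed within 1.5 times, and the diet by group count was 0 under all 4 of its alternatives, with 505 to 737 genes at an unadjusted p below 0.05. Named genes called off chromosome 12, other than with the block, were Sgcz of chromosome 8 and 2310081J21Rik of chromosome 13. Sgcz was called in CD at -0.19 with the methods' t-test and without the batch term, and at -0.21 without the parental strains. 2310081J21Rik was called with dim probesets removed, at 0.35 in HFD and 0.33 on strain means, and at 0.31 on strain means without the batch term. Leaving out BXD55 also brought both in, and leaving out BXD84 brought in Sgcz.

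No direction turned for Ttc15, Adi1, Scin or Ahr under any setting. Ttc15 lay between -0.43 and -0.28 in CD and between -0.51 and -0.25 in HFD, and failed the test only within single batches, among the settings other than single low strains left out. In CD Adi1 failed it within batch 1, with median centring, with the methods' t-test, without BXD63 and without the parental strains. It also failed with the split by the other diet's value, which repeats the main fit (limma adjusted p = 0.055), and passed in the others. Scin failed it in CD within either batch and with BXD50 in the low group, and was among the dim probesets removed. In HFD neither passed in any of these settings. Splitting by the other diet's value gave the same groups and thus the same fits, so it adds nothing here. With 10 low strains and 1 array per strain and diet, the median standard error was 0.0549 in CD and 0.0597 in HFD.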
